A study of Mus musculus with 18 samples.

Results

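Mouse livers taken 3 days after toxic injury, with MycER off (3OFF), were compared gene by gene with livers taken 12 days after it, also with MycER off (group 12). The comparison used 6 of the 18 libraries in the series, 3 per group, and every gene that passed the filter on low counts; the members were chosen by their labels alone. Mice of both groups received carbon tetrachloride (CCl4) by intraperitoneal injection at 0.5 µL/g. In MycER, the growth regulator MYC is joined to a hormone-binding domain of the oestrogen receptor, and the protein stays idle until tamoxifen is given. The labels describe both groups as lacking MycER activation. Group 12ON, used below for context, was taken at day 12 with MycER activated by daily tamoxifen (1 mg), and group 7OFF at day 7 without activation. The labels do not give the promoter that drives MycER, the strain, sex or age of the mice, the hour of collection, whether group 12 received tamoxifen, or whether MycER had been active earlier in the OFF mice. The days since injury (3 against 12) and any earlier MycER activity therefore cannot be told apart in this comparison.

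CCl4 is turned into a toxic radical by cytochrome P450 enzymes of the hepatocytes around the central veins, and those cells die. Surviving hepatocytes then divide, macrophages clear debris, and matrix is laid down and removed again. Dividing hepatocytes make ribosomes and nucleotides, part of the known work of MYC, and lower some of the functions of the resting liver. The Igf2 growth factor and the H19 RNA beside it are abundant in the fetal liver and nearly silent in the adult liver.

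Poly-A RNA of the 6 livers was sequenced to 23.1 to 56 M counts per library, with 19763 to 21539 genes detected in each. Summed levels of 38 secreted hepatocyte proteins were 122519, 137821 and 150046 CPM in 3OFF livers, against 196873, 190930 and 185112 CPM in group 12 livers. Of 17 markers of mesothelium and other organs, 9 fell under the filter on low counts, among them the pancreatic genes Prss1 and Pnlip, and none of the other 8 passed the test. Counts on the mitochondrial chromosome made up 6.91, 5.363 and 7.176% of the 3OFF libraries, against 5.246, 4.8 and 5.186% of the group 12 libraries, with no overlap. Replicate 3 of each group carried high Xist, so 1 of 3 libraries did so in 3OFF and 1 of 3 in group 12. Each group has 3 replicate libraries, taken here to be 3 mice. The p-values measure the spread between replicates, estimated jointly over all 18 libraries of the series. In bulk tissue, fewer cells of a type and less RNA per cell cannot be told apart.

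Of 17789 genes tested with edgeR's quasi-likelihood test, 1685 were higher in 3OFF livers than in group 12 (9.47% of those tested) and 1414 were lower (7.95%), at a Benjamini-Hochberg adjusted p under 0.05. A change of at least 2-fold was also met by 495 of the higher genes (2.78%) and 426 of the lower ones (2.39%). The median log2 fold change over all genes was 0.01. Libraries of the 2 groups did not overlap for 18.4% of all genes in the higher direction and for 16.3% in the lower. Most genes named below were chosen by smallest p or widest fold change, so their lack of overlap is description and no separate support. Leaving out 3OFF replicate 1 left 1044 higher and 743 lower genes. Leaving out group 12 replicate 1 left 1113 higher genes, and 922 and 938 were lower without group 12 replicate 2 and without 3OFF replicate 3. A fit with the mitochondrial share as a term left 491 higher and 240 lower. That share did not overlap between the groups, so this term also takes up part of the group difference. Here and below, calls lost with it cannot be assigned to either. Fold changes below are log2 of 3OFF over group 12 with their standard error, and levels are counts after TMM scaling to a common library size (CPM). Small list counts were fragile: of 36 list counts of 1 to 3 genes in a direction, 32 were moved by over 1.5 times when 1 library was left out.

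The mitosis genes did not separate the groups. None of 36 spindle, kinetochore and cytokinesis genes passed in either direction; their median log2 fold change was 0.26, and their summed level was 149, 114 and 141 CPM in 3OFF livers, against 133, 109 and 107 CPM in group 12 livers. Those ranges overlapped. Mki67, the proliferation marker, had 18.4, 8.52 and 11.1 CPM in 3OFF livers, against 9.29, 8.99 and 9.71 CPM in group 12 livers (log2 fold change 0.44 ± 0.47, adjusted p = 0.579). Cdk1, the kinase that drives entry into mitosis, had 5.13, 3.63 and 4.77 CPM in 3OFF livers, against 3.79, 2.599 and 2.58 CPM in group 12 livers (log2 fold change 0.62 ± 0.41, adjusted p = 0.342). The intervals were wide at these low levels. The 95% interval of Mki67 ran from -0.56 to 1.45 and that of Cdk1 from -0.26 to 1.49, and the interval lay within -1 and 1 for only 5 of the 36 genes, against 66.9% of all genes tested. A return to the level of group 12 within 2-fold was thus bounded for those 5 and not for the other 31. Against 12ON, all 36 were lower in 3OFF livers (of all genes 17% were lower, 15.3% higher and 32.3% passed in either direction), and their median log2 fold change was -2.82; Mki67 was among them (log2 fold change -2.64, adjusted p = 0.000917). Among 40 DNA replication genes, 2 were higher (5%, against 9.47% of all genes) and 1 was lower (2.5%, against 7.95%). Their median was 0.07. The clearest was Ccne1, the cyclin that starts S phase, with 4.16, 6.62 and 5.56 CPM in 3OFF livers, against 1.19, 1.89 and 2.02 CPM in group 12 livers (log2 fold change 1.64 ± 0.36, adjusted p = 0.00602). Its libraries did not overlap. The 2 became 1 without group 12 replicate 2, 3OFF replicate 2 or 3OFF replicate 3, and the lower gene passed with all libraries and without group 12 replicate 2, not in the other 5 fits.

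**Figure D1:**
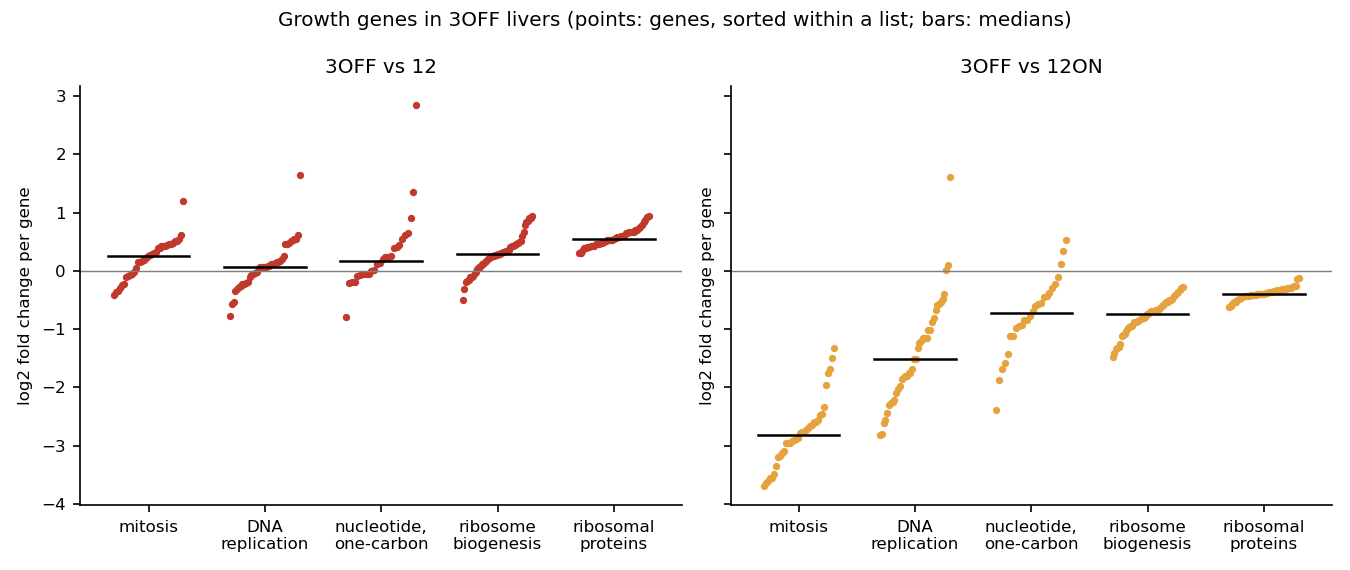
Log2 fold changes of single genes (points, sorted within each list) and list medians (bars) for 3OFF over group 12 (left) and 3OFF over 12ON (right), in 5 lists of growth genes. The mitosis medians were 0.26 and -2.82, while ribosomal protein genes lay above 0 on the left, with a median of 0.54, and below 0 on the right.

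Most ribosomal protein genes were higher. Of 43 cytosolic ribosomal protein genes, 39 were higher (90.7% of the list, against 9.47% of all genes) and none was lower, and their median log2 fold change was 0.54. Their summed level was 15024, 13786 and 11294 CPM in 3OFF livers, against 8212, 10575 and 8191 CPM in group 12 livers, and the lowest 3OFF library stood above the highest of group 12. Rpl10a, of the large subunit, had 432, 364 and 298 CPM in 3OFF livers, against 177, 225 and 172 CPM in group 12 livers (log2 fold change 0.93 ± 0.14, adjusted p = 0.000605). Rps18, of the small subunit, had 459, 431 and 352 CPM in 3OFF livers, against 205, 252 and 191 CPM in group 12 livers (log2 fold change 0.94 ± 0.15, adjusted p = 0.000706). None of the 43 reached 2-fold, and 31 were separate between the groups (18.4% of all genes were). Without 3OFF replicate 1, the library with the highest sum, 23 of the 43 passed; 22 did with the mitochondrial share as a term, and 16 with the 2 groups fitted alone. Many of these genes have processed copies elsewhere in the genome, and reads that align to several places were not counted.

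Factors that build ribosomes showed the same direction less evenly. Of 48 ribosome biogenesis genes, 20 were higher (41.7%, against 9.47% of all genes) and 1 was lower, with a median of 0.28. Ncl, the nucleolar protein nucleolin, had 366, 361 and 302 CPM in 3OFF livers, against 160.2, 189 and 184 CPM in group 12 livers (log2 fold change 0.95 ± 0.12, adjusted p = 0.000161). Npm1, the nucleolar chaperone, had 237, 218 and 187 CPM in 3OFF livers, against 114, 118 and 109.9 CPM in group 12 livers (log2 fold change 0.91 ± 0.11, adjusted p = 0.000116). Both were higher in every 3OFF liver than in any group 12 liver. Fbl, the methyltransferase of ribosomal RNA, and Polr1b, a subunit of RNA polymerase I, had log2 fold changes of 0.79 ± 0.10 and 0.91 ± 0.15, with adjusted p = 0.000211 and 0.00124. The exception was Ltv1, a small-subunit assembly factor, at 13.4, 13.7 and 13.3 CPM in 3OFF livers, against 17.3, 21.3 and 18.4 CPM in group 12 (log2 fold change -0.49 ± 0.11, adjusted p = 0.00541). Against 12ON, 47 of the 48 were lower in 3OFF livers, and the median was -0.74. The count of 20 higher genes was 8 without group 12 replicate 1, 10 without group 12 replicate 3, and 8 without 3OFF replicate 1 or without 3OFF replicate 2; 10 were higher with the mitochondrial share as a term, and 10 with the groups fitted alone.

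Of 26 genes for nucleotide, one-carbon and polyamine synthesis, 7 were higher (26.9%, against 9.47% of all genes) and none lower. The list's median was 0.17. The count was 4 with the groups fitted alone. Mthfd1l, the mitochondrial formate-producing enzyme, had 10.5, 12.8 and 18.4 CPM in 3OFF livers, against 1.297, 1.67 and 2.61 CPM in group 12 livers (log2 fold change 2.84 ± 0.26, adjusted p = 2.14e-05). No 3OFF liver overlapped with group 12. Ppat, the first enzyme of purine synthesis, had 32.6, 35.5 and 31.4 CPM in 3OFF livers, against 13.03, 12.03 and 13.7 CPM in group 12 livers (log2 fold change 1.36 ± 0.15, adjusted p = 5.99e-05). Impdh2, which leads to guanine nucleotides, and Ctps, which makes CTP, had log2 fold changes of 0.55 ± 0.12 and 0.91 ± 0.20. All 4 were lower than in 12ON (log2 fold changes of -1.58, -0.55, -0.69 and -1.69, adjusted p of at most 0.00768).

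The parts of the construct were examined as levels only, since reads of the transgene and of the endogenous genes cannot be told apart in gene counts. Myc had 7.48, 5.88 and 10.9 CPM in 3OFF livers, against 6.23, 6.35 and 9.54 CPM in group 12 livers (log2 fold change 0.12 ± 0.25, adjusted p = 0.794), and the groups overlapped. Esr1, the oestrogen receptor gene, had 13.4, 14.4 and 23.7 CPM in 3OFF livers, against 41.2, 39.7 and 33.5 CPM in group 12 livers (log2 fold change -1.15 ± 0.33, adjusted p = 0.0247). All 3OFF livers were below group 12, but the call was lost without group 12 replicate 1 (adjusted p = 0.0674), group 12 replicate 2 (0.0638), 3OFF replicate 1 (0.103) or 3OFF replicate 2 (0.0847). Of 13 genes of the MYC and MAX network, 6 were higher (46.2%, against 9.47% of all genes) and none lower. Mxi1, a MAX partner that represses MYC targets, had 34.8, 34.04 and 31.4 CPM in 3OFF livers, against 19.4, 18.6 and 18.2 CPM in group 12 livers (log2 fold change 0.84 ± 0.10, adjusted p = 0.000153). The 6 became 3 without group 12 replicate 2 or 3OFF replicate 2, and 2 without group 12 replicate 3 or 3OFF replicate 1; 1 was lower without 3OFF replicate 2. With the groups fitted alone 1 gene was higher, and with the mitochondrial share as a term 2 were. Among 25 p53 targets and CDK inhibitors 1 was higher and 1 lower (4% each, below the 9.47% and 7.95% of all genes). Cdkn2c, an inhibitor of CDK4 and CDK6, had 16.3, 16.1 and 21.8 CPM in 3OFF livers, against 11.2, 10.5 and 11.4 CPM in group 12 livers (log2 fold change 0.71 ± 0.13, adjusted p = 0.00188). That higher count was 2 without group 12 replicate 1 or 3OFF replicate 3, and the lower count was 2 without 3OFF replicate 2 and 0 without 3OFF replicate 3.

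Some of the widest differences were at the H19 and Igf2 locus on chromosome 7. H19 (ENSMUSG00000000031, GRCm38, chr7:142575529-142578143, minus strand), an imprinted RNA that codes for no protein, had 17294, 11001 and 6921 CPM in 3OFF livers, against 37.5, 96.2 and 146 CPM in group 12 livers (log2 fold change 6.98 ± 0.77, adjusted p = 7.58e-05). Igf2 (ENSMUSG00000048583, chr7:142650766-142666816, minus strand), the fetal growth factor, had 5302, 6318 and 1246 CPM in 3OFF livers, against 12.04, 27.7 and 37.3 CPM in group 12 livers (log2 fold change 7.38 ± 0.79, adjusted p = 5.99e-05). Every 3OFF liver stood far above every group 12 liver, and 3OFF replicate 3 was the lowest of its group for both. H19 also hosts a microRNA precursor, Mir675, with the mature products shown here because they lie inside H19. In the RefSeq sequences (GRCm38.p6), with the seed (bases 2 to 8) in capitals, they are:
mmu-miR-675-5p (chr7:142577112-142577133, minus strand): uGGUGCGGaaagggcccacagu
mmu-miR-675-3p (chr7:142577078-142577099, minus strand): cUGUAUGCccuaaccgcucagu

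The 2 arms have different seeds. Libraries of poly-A RNA do not measure mature microRNAs, and reads counted for Mir675, Gm27786 and Gm27483, which overlap H19, cannot be told apart from H19 reads; Igf2os likewise overlaps Igf2, and counting used no strand.

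Across the 6 groups the H19 level was 19098 ± 2110.3 CPM in 1OFF, 22031 ± 6171 in 2OFF, 11739 ± 5226 in 3OFF, 297 ± 319 in 7OFF, 20259.9 ± 2814 in 12ON and 93.1 ± 54.1 in group 12 (SD, n = 3). Igf2 followed with 6076 ± 966, 6998 ± 1233, 4288 ± 2684, 234 ± 227, 4781 ± 984 and 25.7 ± 12.7 CPM in the same order of groups. H19 in 3OFF livers did not pass against 12ON (log2 fold change -0.79, adjusted p = 0.332), nor did Igf2 (log2 fold change -0.16, adjusted p = 0.867). In 7OFF both were lower than in 3OFF (log2 fold changes of -5.30 and -4.20, adjusted p = 0.000985 and 0.00265). Those 2 are among 5.04% of genes that were lower in 7OFF than in 3OFF; 3.02% were higher and 8.06% passed in either direction.

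**Figure D2:**
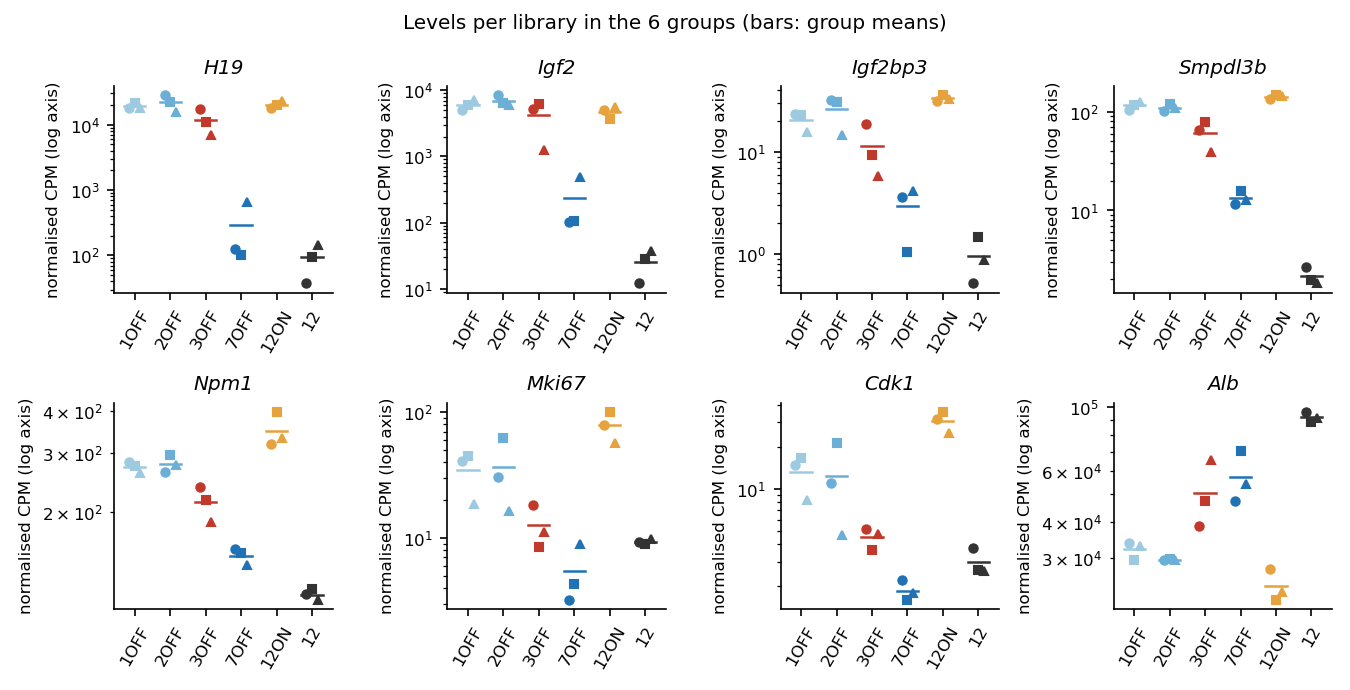
Normalised CPM per library on log axes for 8 genes in the 6 groups; circles, squares and triangles are replicates 1, 2 and 3, and bars are group means. H19 and Igf2 in 3OFF lie within 1 log10 unit of 12ON, Mki67 and Cdk1 lie near group 12, and Npm1 and Alb lie between.

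Other fetal and imprinted genes did not all move with this pair. Of 17 fetal liver and progenitor genes tested, 5 were higher (29.4%, against 9.47% of all genes) and 1 was lower, with a median of 1.12. H19 and Igf2 belong to this list and count among the 5. Igf2bp3, a fetal protein that binds Igf2 mRNA, had 18.7, 9.304 and 5.83 CPM in 3OFF livers, against 0.519, 1.48 and 0.883 CPM in group 12 livers (log2 fold change 3.51 ± 0.54, adjusted p = 0.000664). Hmga1, an architectural chromatin protein of growing cells, had 49.99, 40.7 and 20.98 CPM in 3OFF livers, against 12.8, 12.2 and 11.6 CPM in group 12 livers (log2 fold change 1.62 ± 0.28, adjusted p = 0.00149). Igf2bp2, a paralog of Igf2bp3, went the other way, at 0.73, 0.799 and 1.55 CPM in 3OFF livers, against 2.802, 3.21 and 2.91 CPM in group 12 livers (log2 fold change -1.55 ± 0.37, adjusted p = 0.0096). The groups did not overlap for any of the 3. Afp, the fetal counterpart of albumin, did not pass (log2 fold change -0.03).

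The promoter window of Igf2bp3 is given because it holds 2 copies of CACGTG, the E-box that MYC and the clock factors can bind. RefSeq promoter windows (GRCm38.p6, 250 bases before to 50 after the start, both strands searched) held this palindrome in 7.15% of 32851 cases, so the match is a description and no sign of binding. It starts at bases 228 and 256 of the window chr6:49214905-49215204, minus strand, where capitals mark it:
Igf2bp3: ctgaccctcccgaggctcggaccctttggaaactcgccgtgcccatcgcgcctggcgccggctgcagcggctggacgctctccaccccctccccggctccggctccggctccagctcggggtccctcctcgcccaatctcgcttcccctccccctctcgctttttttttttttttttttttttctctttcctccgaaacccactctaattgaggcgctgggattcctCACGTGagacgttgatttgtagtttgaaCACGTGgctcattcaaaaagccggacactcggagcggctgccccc

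Of 25 imprinted genes tested, 4 were higher (16%, against 9.47% of all genes) and 3 lower (12%, against 7.95%). H19 and Igf2 belong to this list too and count among the 4 higher genes. The 3 lower ones were maternally expressed RNAs of 1 cluster on chromosome 12. Meg3 (chr12:109541001-109571726, plus strand) had 1.16, 1.14 and 0.84 CPM in 3OFF livers, against 15.2, 11.7 and 12.04 CPM in group 12 livers (log2 fold change -3.62 ± 0.57, adjusted p = 0.000761). Rian, further along the cluster (chr12:109603940-109661716, plus strand), had 0.852, 1.27 and 0.515 CPM in 3OFF livers, against 14.997, 14.8 and 9.91 CPM in group 12 livers (log2 fold change -3.88 ± 0.52, adjusted p = 0.00029). Every 3OFF liver was below every group 12 liver. Mirg, the third, had a log2 fold change of -2.89 ± 0.55 (adjusted p = 0.00254). Meg3 and Rian were lower than in 12ON as well (log2 fold change -2.70, adjusted p = 0.00196 for Meg3, and log2 fold change -3.36, adjusted p = 0.000305 for Rian). Igf2r, the receptor that takes up and degrades IGF2, had 64.1, 55.7 and 52.5 CPM in 3OFF livers, against 39.1, 39.2 and 38.3 CPM in group 12 livers (log2 fold change 0.56 ± 0.12, adjusted p = 0.00628). Without 3OFF replicate 3 the count of lower imprinted genes was 5.

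Several other genes were many times higher in 3OFF livers, and the first 5 described here were among the 15 highest fold changes. Smpdl3b, a lipid phosphodiesterase of the cell surface, had 65.97, 78.8 and 39.5 CPM in 3OFF livers, against 2.65, 1.99 and 1.83 CPM in group 12 livers (log2 fold change 4.86 ± 0.23, adjusted p = 1.83e-08). Gsn, the actin-severing protein gelsolin, had 798, 549 and 763 CPM in 3OFF livers, against 24.6, 27.7 and 37.5 CPM in group 12 livers (log2 fold change 4.55 ± 0.43, adjusted p = 2.42e-05). Ubd, a ubiquitin-like modifier, had 29.2, 21.7 and 32.1 CPM in 3OFF livers, against 1.19, 0.61 and 0.474 CPM in group 12 livers (log2 fold change 5.32 ± 0.36, adjusted p = 9.36e-07). None of these overlapped, which the rule for the 15 highest required. Timp4, an inhibitor of matrix metalloproteinases, had 31.6, 28.9 and 6.64 CPM in 3OFF livers, against 0.156, 0.257 and 0.194 CPM in group 12 livers (log2 fold change 6.75 ± 0.98, adjusted p = 0.000465). Rragd, a Rag GTPase that relays nutrient supply to mTORC1, had 41.2, 28.9 and 20.3 CPM in 3OFF livers, against 1.505, 1.83 and 2.498 CPM in group 12 livers (log2 fold change 3.91 ± 0.34, adjusted p = 1.33e-05). Mmp15, a membrane-bound matrix protease with the smallest p among higher genes of its list, had 72.5, 70.4 and 69.3 CPM in 3OFF livers, against 24.6, 20.6 and 21.1 CPM in group 12 livers (log2 fold change 1.68 ± 0.17, adjusted p = 5.54e-05). Of these 6, Smpdl3b and Rragd were lower than in 12ON (log2 fold change -1.21, adjusted p = 0.00039 and log2 fold change -0.95, adjusted p = 0.017); the others did not pass that comparison.

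Most cholesterol synthesis genes were lower. Of 25, 21 were lower in 3OFF livers (84%, against 7.95% of all genes) and none was higher; the median log2 fold change was -1.04. Summed levels were 3237, 3959.6 and 4693 CPM in 3OFF livers, against 6216, 8011 and 8286 CPM in group 12 livers, with no overlap. Sqle, the squalene epoxidase that commits the pathway to sterols, had 61.8, 74.8 and 73.4 CPM in 3OFF livers, against 150.3, 279 and 197 CPM in group 12 livers (log2 fold change -1.58 ± 0.23, adjusted p = 0.000517). Cyp51, which removes the methyl group of lanosterol, had 88.4, 131 and 151 CPM in 3OFF livers, against 269.8, 429.8 and 351 CPM in group 12 livers (log2 fold change -1.50 ± 0.24, adjusted p = 0.000821). Dhcr7, the last step to cholesterol, had 56.8, 73.8 and 72.5 CPM in 3OFF livers, against 149.9, 171 and 158 CPM in group 12 livers (log2 fold change -1.24 ± 0.19, adjusted p = 0.000605). In each, the 3OFF livers lay below all group 12 livers, as they did for 16.3% of all genes. Ebp, a sterol isomerase, had a log2 fold change of -1.03 ± 0.15 (adjusted p = 0.000412). Among the 4 genes that did not pass were Acat2, a thiolase at the start of the pathway, and Stard4, a sterol carrier, with log2 fold changes of -0.16 and -0.14; they are named after their values were seen. Between 16 and 20 of the 25 were lower whichever library was left out, and 9 in the fit with the mitochondrial share. Against 12ON, 3 were higher and 2 lower, with a median of 0.06. Fatty acid and triglyceride synthesis did not follow, with 2 of 24 genes lower (8.33%, close to the 7.95% of all genes) and none higher. Agpat2, which acylates lysophosphatidic acid, had 162, 157 and 144 CPM in 3OFF livers, against 207, 256 and 196 CPM in group 12 livers (log2 fold change -0.51 ± 0.11, adjusted p = 0.00603). That count of lower genes was 4 without group 12 replicate 2, and 1 without group 12 replicate 3 or 3OFF replicate 1; 1 gene was higher without group 12 replicate 3.

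**Figure D3:**
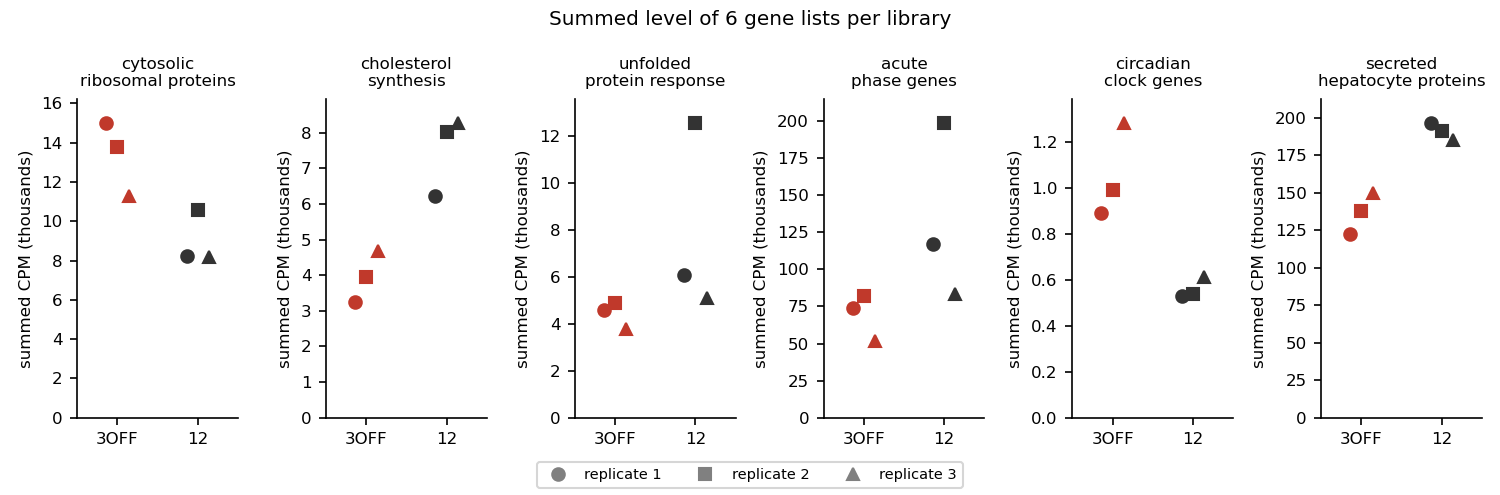
Summed CPM (axes in units of 1000, from 0) of 6 gene lists in the 3OFF libraries (left, red) and group 12 libraries (right, black); markers are replicates 1 to 3. Ribosomal protein and clock sums were higher and cholesterol and secreted protein sums lower in 3OFF without overlap, while group 12 replicate 2 stood above the others in the unfolded protein response and acute phase sums.

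Many genes of the unfolded protein response were lower, with 1 library of group 12 standing apart. These chaperones and enzymes fold secreted proteins in the endoplasmic reticulum. Of 25, 16 were lower (64%, against 7.95% of all genes) and none was higher, with a median of -0.86. Summed levels were 4573, 4900.3 and 3772 CPM in 3OFF livers, against 6090.1, 12562 and 5113 CPM in group 12 livers, so group 12 replicate 2 was far above the other five. Without it 4 of the 25 were lower and the median was -0.44; 7 were lower without 3OFF replicate 1, 5 without 3OFF replicate 3, and 1 with the mitochondrial share as a term. With the groups fitted alone, 2 were lower and 1 was higher. Edem1, which sends misfolded proteins to degradation, had 146, 158 and 149.8 CPM in 3OFF livers, against 212, 296 and 197 CPM in group 12 livers (log2 fold change -0.64 ± 0.12, adjusted p = 0.00279). Atf4, the factor of the integrated stress response, had 67.1, 66.04 and 62.5 CPM in 3OFF livers, against 88.3, 97.2 and 84.9 CPM in group 12 livers (log2 fold change -0.47 ± 0.10, adjusted p = 0.00487). Both kept their call with any library left out.

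The element known as ERSE (CCAAT and CCACG with 9 bases of any kind between them), bound by ATF6 with NF-Y, was found on either strand in 8 of 22 windows of this list (36.4%), against 0.119% of all windows. The 2 windows below are shown as examples chosen because they hold it, with the element in capitals. Creld2 has it on the reverse strand, and neither window is evidence of binding. The share of 36.4% describes promoters of a list of known response genes, not the difference between the groups.
Creld2 (chr15:88819396-88819695, plus strand): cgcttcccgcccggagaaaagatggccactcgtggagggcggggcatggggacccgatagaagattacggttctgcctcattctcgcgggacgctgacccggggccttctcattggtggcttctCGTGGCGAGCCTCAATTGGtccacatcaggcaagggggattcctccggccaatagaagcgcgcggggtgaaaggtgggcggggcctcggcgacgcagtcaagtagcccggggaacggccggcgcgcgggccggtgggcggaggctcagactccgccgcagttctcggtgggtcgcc
Pdia6 (chr12:17266339-17266638, plus strand): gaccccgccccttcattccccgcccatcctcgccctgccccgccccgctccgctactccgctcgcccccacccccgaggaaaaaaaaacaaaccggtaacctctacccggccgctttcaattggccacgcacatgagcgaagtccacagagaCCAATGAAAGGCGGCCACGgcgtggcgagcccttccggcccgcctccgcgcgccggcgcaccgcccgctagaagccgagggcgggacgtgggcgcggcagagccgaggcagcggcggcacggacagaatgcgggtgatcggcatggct

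Creld2, a chaperone-like protein, had 17.97, 21.8 and 13.1 CPM in 3OFF livers, against 39.5, 186 and 24.9 CPM in group 12 livers (log2 fold change -2.24 ± 0.58, adjusted p = 0.0162). Pdia6, a disulfide isomerase, had 199.6, 209 and 151 CPM in 3OFF livers, against 305, 641 and 253 CPM in group 12 livers (log2 fold change -1.10 ± 0.28, adjusted p = 0.0135). In both, group 12 replicate 2 was the highest. Without it the log2 fold changes were -0.86 and -0.58 (adjusted p = 0.175 and 0.0736). The call of Creld2 was also lost without 3OFF replicate 1 (0.0566) or replicate 3 (0.0638), and that of Pdia6 without 3OFF replicate 3 (0.0582).

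The liver secretes acute phase proteins in inflammation. Of 31 acute phase genes, 14 were lower (45.2%, against 7.95% of all genes) and none was higher, while 17 did not pass. The median was -1.23. Summed levels were 73698, 82216 and 51865 CPM in 3OFF livers, against 117065, 198954 and 83616 CPM in group 12 livers. Group 12 replicate 2 was again the highest, and 3 genes passed without it, 6 without 3OFF replicate 1, 3 without 3OFF replicate 3 and 0 with the mitochondrial share as a term; 8 passed with the groups fitted alone. Orm1, an orosomucoid, had 706, 975 and 428 CPM in 3OFF livers, against 2360.2, 3519.7 and 1429 CPM in group 12 livers (log2 fold change -1.79 ± 0.42, adjusted p = 0.00863). Its near relative Orm2 had 186, 336 and 94.04 CPM in 3OFF livers, against 1276, 1525 and 618 CPM in group 12 livers (log2 fold change -2.47 ± 0.54, adjusted p = 0.00583). Serpina3m, a serine protease inhibitor, had 352, 276 and 194 CPM in 3OFF livers, against 683, 1100.3 and 666 CPM in group 12 livers (log2 fold change -1.58 ± 0.35, adjusted p = 0.00702). For these 3 the groups did not overlap and the call held with any library left out. Saa2, serum amyloid A, had 144, 229 and 27.3 CPM in 3OFF livers, against 2464, 12398 and 931 CPM in group 12 livers (log2 fold change -5.30 ± 1.43, adjusted p = 0.0195), and its call was lost without group 12 replicate 2 (-3.67, adjusted p = 0.0831), 3OFF replicate 1 (0.0709) or 3OFF replicate 3 (0.0676), while its fold change was -5.94 without 3OFF replicate 2. Orm and Saa genes are near-identical copies, and their counts are uncertain for that reason.

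Of 37 interferon response genes, 12 were lower (32.4%, against 7.95% of all genes), 25 did not pass and none was higher. Their median was -0.41. Stat2, a signal carrier of type I interferon, had 47.9, 52.2 and 51.8 CPM in 3OFF livers, against 77.5, 95.8 and 68.3 CPM in group 12 livers (log2 fold change -0.67 ± 0.12, adjusted p = 0.00147). Its partner Irf9 had a log2 fold change of -0.69 ± 0.13 (adjusted p = 0.00262). Irgm1, an interferon-induced GTPase, had 46.5, 52.2 and 45.1 CPM in 3OFF livers, against 80.3, 71.3 and 75.5 CPM in group 12 livers (log2 fold change -0.66 ± 0.12, adjusted p = 0.00238). The 3OFF livers lay below group 12 for Stat2, Irf9 and Irgm1. Without 3OFF replicate 1, 6 of the 37 were lower, and 1 with the mitochondrial share as a term.

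Clock genes differed in both directions. Of 20, 9 were higher (45%, against 9.47% of all genes) and 4 lower (20%, against 7.95%). The heterodimers of ARNTL (BMAL1) with CLOCK or NPAS2 activate the Per, Cry and output genes, whose products later repress them. On the activator side, Clock had 28.4, 27.9 and 18.3 CPM in 3OFF livers, against 55.99, 59.8 and 47.8 CPM in group 12 livers (log2 fold change -1.13 ± 0.14, adjusted p = 0.00013), and Npas2 had 0.0608, 0.0951 and 0.0813 CPM in 3OFF livers, against 5.397, 4.08 and 1.72 CPM in group 12 livers (log2 fold change -5.49 ± 1.03, adjusted p = 0.00239). Arntl had 9.71, 4.395 and 1.52 CPM in 3OFF livers, against 31.7, 24.4 and 13.3 CPM in group 12 livers (log2 fold change -2.12 ± 0.66, adjusted p = 0.0364). All 3 were lower in every 3OFF liver. On the repressor and output side, Per1 had 66.8, 52.8 and 73.3 CPM in 3OFF livers, against 7.27, 14.8 and 7.78 CPM in group 12 livers (log2 fold change 2.69 ± 0.75, adjusted p = 0.0223). It was higher in every 3OFF liver than in any group 12 liver. Per1 is shown because its window holds the E-box found in 6 of 22 clock windows (27.3%), and the E-box stands in capitals from base 85 (GRCm38.p6):
Per1 (chr11:69098699-69098998, plus strand): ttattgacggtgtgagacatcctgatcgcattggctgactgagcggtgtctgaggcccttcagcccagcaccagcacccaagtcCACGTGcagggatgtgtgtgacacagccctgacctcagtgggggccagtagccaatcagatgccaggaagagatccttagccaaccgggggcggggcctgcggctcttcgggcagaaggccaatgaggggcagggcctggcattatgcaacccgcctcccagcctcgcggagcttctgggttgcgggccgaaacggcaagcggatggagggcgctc

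The calls of Per1 and Arntl depended on single libraries. For Per1 the adjusted p was 0.0805, 0.0747, 0.0529 and 0.0519 without group 12 replicate 1, group 12 replicate 3, 3OFF replicate 1 and 3OFF replicate 3. For Arntl it was 0.11, 0.0807, 0.104 and 0.115 without group 12 replicate 1, group 12 replicate 2, 3OFF replicate 2 and 3OFF replicate 3, and its fold change was -2.93 without 3OFF replicate 1. The 9 higher genes became 1 without group 12 replicate 1, 5 without group 12 replicate 2, 5 without 3OFF replicate 1 and 2 without 3OFF replicate 3; the 4 lower ones became 2 without group 12 replicate 1 or 3OFF replicate 3. With the mitochondrial share as a term, 1 was higher and 2 were lower. The hour of collection is not given in the sources used here, so it cannot be told apart from the groups.

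**Figure D4:**
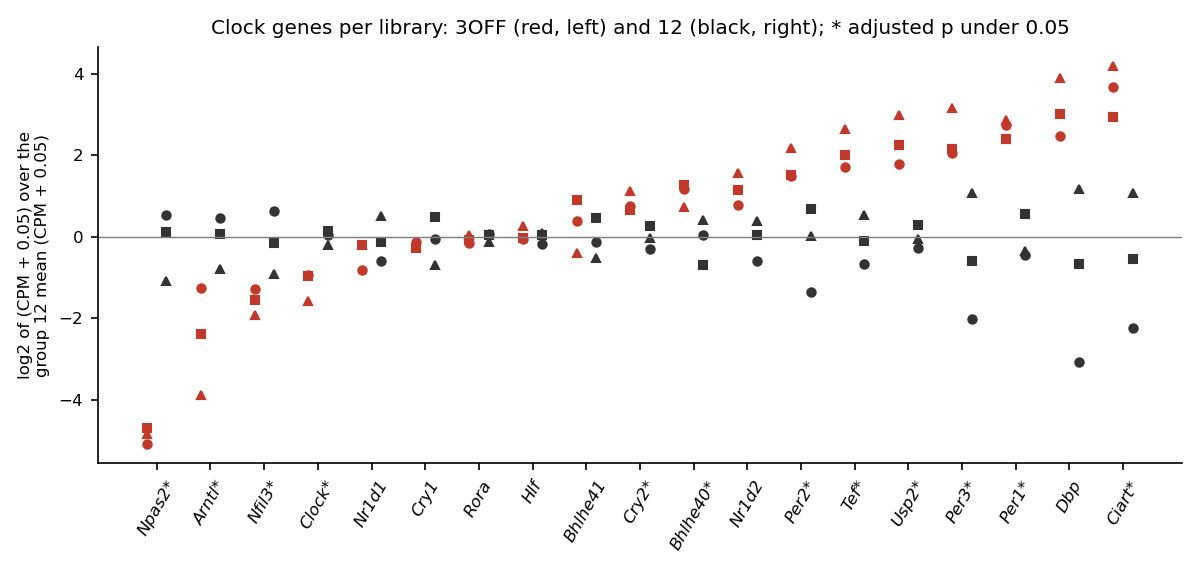
Clock genes (19 of the 20) in order of fold change, with each library as log2 of its CPM + 0.05 over the group 12 mean CPM + 0.05 (3OFF red on the left of each gene, group 12 black on the right; circles, squares and triangles are replicates 1 to 3). Npas2, Arntl, Nfil3 and Clock lay low in 3OFF and Per1, Per2, Tef and Usp2 high, with a wide spread within group 12 for Dbp, Ciart and Per3.

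Of 38 secreted hepatocyte proteins, 6 were lower (15.8%, against 7.95% of all genes) and 1 was higher (2.63%, against 9.47%). Alb, serum albumin, had 38742, 47292 and 65533 CPM in 3OFF livers, against 95888, 88449.9 and 91320.2 CPM in group 12 livers (log2 fold change -0.86 ± 0.22, adjusted p = 0.015), and no 3OFF liver reached group 12, though the adjusted p was 0.0671 without 3OFF replicate 1. Apoc3, an apolipoprotein that slows triglyceride clearance, had 643, 617 and 809 CPM in 3OFF livers, against 1137, 957 and 1137 CPM in group 12 livers (log2 fold change -0.64 ± 0.14, adjusted p = 0.00565). The 6 lower genes became 2 without group 12 replicate 1, 3 without group 12 replicate 2, 1 without 3OFF replicate 1 and 3 without 3OFF replicate 3, and the higher one was lost without group 12 replicate 1 or 3OFF replicate 3. With the groups fitted alone 3 were lower and none higher, and none passed with the mitochondrial share as a term. Nr1i3, the xenobiotic receptor CAR, had 140.5, 154 and 209 CPM in 3OFF livers, against 87.8, 71.05 and 76.9 CPM in group 12 livers (log2 fold change 1.09 ± 0.21, adjusted p = 0.00318). Among 26 hepatocyte transcription factors 2 were higher and 2 lower (7.69% each, close to the share of all genes). The higher count was 1 without group 12 replicate 1, group 12 replicate 2, 3OFF replicate 2 or 3OFF replicate 3, and the lower count was 1 without group 12 replicate 2 or 3OFF replicate 1.

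Several genes of the periportal zone were higher, urea cycle enzymes among them. Cps1, the first enzyme of the cycle, had 4157, 2976 and 3746 CPM in 3OFF livers, against 1818, 1334 and 1726 CPM in group 12 livers (log2 fold change 1.16 ± 0.19, adjusted p = 0.000956). Otc, the next enzyme, had 411, 391 and 448 CPM in 3OFF livers, against 268, 245 and 247 CPM in group 12 livers (log2 fold change 0.72 ± 0.17, adjusted p = 0.0108). Etnppl, which degrades phosphoethanolamine, had 90.2, 104 and 139 CPM in 3OFF livers, against 26.8, 26.3 and 43.1 CPM in group 12 livers (log2 fold change 1.79 ± 0.27, adjusted p = 0.000597), and Hsd17b13, a lipid droplet enzyme, had 756, 677 and 678 CPM in 3OFF livers, against 317, 364 and 312 CPM in group 12 livers (log2 fold change 1.09 ± 0.10, adjusted p = 2.94e-05). In all 4 the groups did not overlap. They were 4 of the 5 higher genes of the periportal list of 28 (17.9%); 2 others were lower (7.14%), among them Sult5a1, a sulfotransferase, with 3.49, 8.11 and 5.99 CPM in 3OFF livers, against 67.4, 45.99 and 50.1 CPM in group 12 livers (log2 fold change -3.21 ± 0.64, adjusted p = 0.00345). Whichever library was left out, 1 periportal gene was lower. Perivenous genes, from the zone that CCl4 injures, gave 1 higher (3.7%) and 3 lower (11.1%) of 27. For both zones, the shares of all genes to compare with were 9.47% higher and 7.95% lower. Cyp2c29 had 209, 283 and 197 CPM in 3OFF livers, against 931, 674 and 845 CPM in group 12 livers (log2 fold change -1.83 ± 0.29, adjusted p = 0.00084), and Slc13a3, a dicarboxylate transporter, had 15.4, 19.7 and 27.5 CPM in 3OFF livers, against 45.5, 46.1 and 68.4 CPM in group 12 livers (log2 fold change -1.36 ± 0.30, adjusted p = 0.00609). The count of lower perivenous genes was 5 without 3OFF replicate 3, and the 1 higher gene was lost when group 12 replicate 1, 2 or 3 or 3OFF replicate 3 was left out.

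Cytochromes P450 passed more often in the lower direction. Of 54 genes of families 1 to 4, 14 were lower (25.9%, against 7.95% of all genes). The 5 higher ones (9.26%) were close to the 9.47% of all genes, and the list's median was -0.23. Cyp2c40 had 54.3, 76.4 and 61.3 CPM in 3OFF livers, against 217, 303 and 271 CPM in group 12 livers (log2 fold change -2.04 ± 0.34, adjusted p = 0.00121), and Cyp3a44 had 54.4, 88.8 and 172 CPM in 3OFF livers, against 476, 901 and 521 CPM in group 12 livers (log2 fold change -2.59 ± 0.47, adjusted p = 0.00204). Cyp2d9 was higher, with 329.96, 332 and 320.4 CPM in 3OFF livers, against 72.8, 50.5 and 37.6 CPM in group 12 livers (log2 fold change 2.61 ± 0.60, adjusted p = 0.00797). Each was separate between the groups in all libraries. Many members are close paralogs, so that reads shared between them were lost to counting. The 14 became 9 without 3OFF replicate 1, and the 5 became 8 without group 12 replicate 3; with the mitochondrial share as a term 5 were lower and 2 higher.

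Cyp3a41a and Cyp3a44 are more abundant in female than in male adult mice, and the Mup genes and Cyp2d9 are more abundant in males. Of 36 growth hormone axis and sex-biased genes, 10 were lower (27.8%, against 7.95% of all genes) and 3 higher (8.33%, close to 9.47%). Cyp3a41a had 49.1, 189 and 152 CPM in 3OFF livers, against 963, 1832 and 1096 CPM in group 12 livers (log2 fold change -3.32 ± 0.72, adjusted p = 0.00605). Cyp3a41a was higher in each group 12 liver than in any 3OFF liver. Mup7, a major urinary protein, had 32.99, 59.4 and 15.6 CPM in 3OFF livers, against 1536, 838 and 73.4 CPM in group 12 livers (log2 fold change -4.50 ± 1.29, adjusted p = 0.0254), with the high-Xist library of group 12 far below its other libraries. Its call was lost without group 12 replicate 1 (-3.66, adjusted p = 0.0798), 3OFF replicate 1 (0.0901), 3OFF replicate 2 (0.0508) or 3OFF replicate 3 (0.0905). The Mup genes are near-identical, and 10 of the 15 lowest fold changes were Mup genes. Mup20 went the other way, with 1293, 472 and 1591 CPM in 3OFF livers, against 150.2, 88.5 and 28.7 CPM in group 12 livers (log2 fold change 3.65 ± 1.03, adjusted p = 0.0238). Its call was lost without group 12 replicate 2 (adjusted p = 0.0767), group 12 replicate 3 (0.0787), 3OFF replicate 1 (0.0558) or 3OFF replicate 3 (0.0601), and its fold change was 4.26 without group 12 replicate 1. Stat5a, a carrier of growth hormone signals, had 21.98, 27.3 and 21.4 CPM in 3OFF livers, against 52.2, 36.9 and 60.8 CPM in group 12 livers (log2 fold change -1.08 ± 0.19, adjusted p = 0.00134). The 10 lower genes became 3 without group 12 replicate 1, 3 without 3OFF replicate 1 and 4 without 3OFF replicate 3; 2 were lower with the mitochondrial share as a term.

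Of 38 glutathione transferase and NRF2 genes, 5 were higher (13.2%) and 2 lower (5.26%), near the shares of all genes. Gsta2, a glutathione transferase, had 15.8, 7.69 and 20.3 CPM in 3OFF livers, against 1.71, 0.866 and 0.84 CPM in group 12 livers (log2 fold change 3.77 ± 0.42, adjusted p = 8.9e-05), and its paralog Gsta1 had 9.84, 7.002 and 19.9 CPM in 3OFF livers, against 1.297, 0.642 and 0.862 CPM in group 12 livers (log2 fold change 3.76 ± 0.54, adjusted p = 0.000458). Gstt1 was lower, with 70.998, 79.1 and 119 CPM in 3OFF livers, against 194, 162 and 209 CPM in group 12 livers (log2 fold change -1.07 ± 0.20, adjusted p = 0.00219). None of the 3 overlapped between groups. The 5 became 3 without group 12 replicate 1 or 3OFF replicate 3, and the 2 became 4 without 3OFF replicate 3 and 1 without group 12 replicate 1, group 12 replicate 3, 3OFF replicate 1 or 3OFF replicate 2.

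Of 27 genes of bile acid synthesis and transport, 5 were higher (18.5%, against 9.47% of all genes) and 2 lower (7.41%, close to 7.95%). Their median was 0.18. Abcc2, an export pump of the bile canaliculus, had 378, 375 and 531 CPM in 3OFF livers, against 257, 244 and 292 CPM in group 12 livers (log2 fold change 0.70 ± 0.18, adjusted p = 0.0142). The phospholipid exporter Abcb4, the reductase Akr1d1 of bile acid synthesis and the uptake carrier Slco1a4 had log2 fold changes of 0.72 ± 0.22, 0.95 ± 0.28 and 1.73 ± 0.55 (adjusted p = 0.0344, 0.032 and 0.0418). All 4 calls depended on single libraries, and none passed without group 12 replicate 2 or without 3OFF replicate 3. Abcb4 was also lost without group 12 replicate 1 or 3OFF replicate 2, and Akr1d1 without group 12 replicate 1 or 3OFF replicate 1. With 1 library left out, Slco1a4 passed only without group 12 replicate 3 (log2 fold change 2.82). Among the lower genes, Hsd3b7, an enzyme of bile acid synthesis, had 318, 293 and 238 CPM in 3OFF livers, against 594, 423 and 589 CPM in group 12 livers (log2 fold change -0.92 ± 0.19, adjusted p = 0.00387). The 5 became 1 without group 12 replicate 1, 0 without group 12 replicate 2 or 3OFF replicate 3, 3 without 3OFF replicate 1 and 2 without 3OFF replicate 2. The 2 lower genes became 1 without group 12 replicate 1, group 12 replicate 2, 3OFF replicate 1 or 3OFF replicate 2. With the groups fitted alone 1 was higher, and none passed in either direction with the mitochondrial share as a term.

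In energy metabolism, Ppargc1a, the coactivator of mitochondrial and gluconeogenic genes, had 18.8, 16.5 and 17.8 CPM in 3OFF livers, against 4.72, 6.35 and 9.26 CPM in group 12 livers (log2 fold change 1.36 ± 0.24, adjusted p = 0.00159). Fgf21, a hormone released in fasting and stress, had 2.74, 5.42 and 7.16 CPM in 3OFF livers, against 13.3, 14.5 and 23.05 CPM in group 12 livers (log2 fold change -1.74 ± 0.36, adjusted p = 0.00459). Cbs, the entry to transsulfuration, had 337, 396 and 371 CPM in 3OFF livers, against 890.2, 1115 and 1027 CPM in group 12 livers (log2 fold change -1.46 ± 0.21, adjusted p = 0.000413). Slc2a2, the hepatocyte glucose transporter, had 351, 373 and 506 CPM in 3OFF livers, against 165, 149.7 and 225 CPM in group 12 livers (log2 fold change 1.19 ± 0.21, adjusted p = 0.00155). All 4 were separate between groups. Of 30 genes of fatty acid oxidation and ketogenesis, 1 was higher (3.33%, against 9.47% of all genes) and 2 lower (6.67%, against 7.95%). Of 34 genes of gluconeogenesis and amino acid catabolism, 4 were higher (11.8%) and 2 lower (5.88%). That higher count was 1 to 3 with a library left out. Of 32 nuclear genes of the respiratory chain, 1 was higher and 1 lower (3.12% each). Among 26 glycolysis genes, 4 were higher (15.4%) and 3 lower (11.5%); Aldoa, an aldolase more abundant in fetal than adult liver, had 155, 146 and 135 CPM in 3OFF livers, against 90.6, 95.2 and 106 CPM in group 12 livers (log2 fold change 0.58 ± 0.11, adjusted p = 0.00338), and Tpi1 had 327, 338 and 342 CPM in 3OFF livers, against 426, 432 and 487 CPM in group 12 livers (log2 fold change -0.42 ± 0.09, adjusted p = 0.00786). The 3 lower ones became 1 without group 12 replicate 2, 3OFF replicate 1 or 3OFF replicate 3.

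Of 23 immediate early genes, 4 were higher (17.4%, against 9.47% of all genes) and 2 lower (8.7%, close to 7.95%). Their median was 0.62. Jun, a subunit of AP-1, had 44.2, 62.3 and 35.6 CPM in 3OFF livers, against 22.9, 13.4 and 19.8 CPM in group 12 livers (log2 fold change 1.34 ± 0.26, adjusted p = 0.00311). Atf3, a stress factor, had 7.24, 10.6 and 8.403 CPM in 3OFF livers, against 1.76, 2.37 and 4.03 CPM in group 12 livers (log2 fold change 1.64 ± 0.38, adjusted p = 0.00837). Klf6, a factor of early wound response, had 45.3, 37.1 and 39.1 CPM in 3OFF livers, against 18.2, 18.2 and 21.5 CPM in group 12 livers (log2 fold change 1.07 ± 0.18, adjusted p = 0.00106). None overlapped, and all 3 were lower in 7OFF than in 3OFF (log2 fold change -1.41, adjusted p = 0.00553; log2 fold change -1.94, adjusted p = 0.00709; log2 fold change -1.05, adjusted p = 0.00316). The 2 lower genes were lost without group 12 replicate 1, 3OFF replicate 1 or 3OFF replicate 3, and 1 passed without group 12 replicate 3 or 3OFF replicate 2. Of 25 growth receptors and YAP targets, 2 were higher (8%, against 9.47% of all genes) and 3 lower (12%, against 7.95%). Their median was -0.04, and the counts were 1 to 2 and 1 to 3 with a library left out. Tgfa, a ligand of the EGF receptor, had 26.5, 27.1 and 23.4 CPM in 3OFF livers, against 12.9, 12.9 and 13.5 CPM in group 12 livers (log2 fold change 0.97 ± 0.14, adjusted p = 0.000477). Lifr, the receptor of leukaemia inhibitory factor, had 118, 208 and 178 CPM in 3OFF livers, against 638, 524 and 572 CPM in group 12 livers (log2 fold change -1.78 ± 0.28, adjusted p = 0.000706), and it was higher in 3OFF than in 12ON (log2 fold change 1.95, adjusted p = 0.000201).

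Markers of other liver cells were read as levels of tissue RNA. Of 22 cholangiocyte and ductular markers tested, 6 were higher (27.3%, against 9.47% of all genes) and none lower, with a median of 0.59. Summed levels were 511, 481 and 549 CPM in 3OFF livers, against 357, 416 and 413 CPM in group 12 livers. Epcam, a surface protein of bile duct cells, had 3.04, 1.598 and 2.602 CPM in 3OFF livers, against 0.623, 0.61 and 0.905 CPM in group 12 livers (log2 fold change 1.72 ± 0.35, adjusted p = 0.00375). Bicc1, an RNA-binding protein, had 35.002, 16.7 and 19.7 CPM in 3OFF livers, against 7.52, 6.07 and 7.302 CPM in group 12 livers (log2 fold change 1.78 ± 0.36, adjusted p = 0.00377). The sums did not overlap, but Krt19 and Sox9, defining ductular genes, did not pass (log2 fold changes 0.38 and -0.21). Without group 12 replicate 1 the 6 became 3, and none passed with the mitochondrial share as a term; 1 was lower without 3OFF replicate 3.

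Sinusoidal endothelial markers were lower in 6 of 25 (24%, against 7.95% of all genes) and higher in none, with a median of -0.36. Their sums were 761, 862 and 951 CPM in 3OFF livers, against 1133, 979.7 and 1163 CPM in group 12 livers. Clec4g, a lectin of these cells, had 41.1, 49.9 and 57.96 CPM in 3OFF livers, against 77.2, 75.2 and 80.5 CPM in group 12 livers (log2 fold change -0.65 ± 0.15, adjusted p = 0.00748). Ehd3 had 49.2, 54.2 and 66.9 CPM in 3OFF livers, against 97.3, 75.96 and 98.6 CPM in group 12 livers (log2 fold change -0.67 ± 0.15, adjusted p = 0.00732). Both were lower in every 3OFF liver. The 6 became 3 without 3OFF replicate 1, and 3 with the mitochondrial share as a term. Stab2 and Lyve1, which also mark these cells, did not pass (0.05 and -0.19).

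Of 32 monocyte and macrophage markers, 4 were higher (12.5%) and 2 lower (6.25%), close to the 9.47% and 7.95% of all genes. Clec7a, the receptor dectin-1, had 27.3, 25.2 and 34.5 CPM in 3OFF livers, against 9.86, 10.9 and 11.7 CPM in group 12 livers (log2 fold change 1.42 ± 0.12, adjusted p = 1.33e-05). Trem2, a lipid receptor of scar-associated macrophages, had 8.42, 5.54 and 10.7 CPM in 3OFF livers, against 1.97, 2.18 and 4.57 CPM in group 12 livers (log2 fold change 1.45 ± 0.32, adjusted p = 0.00594), and Cd63, a lysosomal membrane protein, had 80.5, 57.8 and 80.2 CPM in 3OFF livers, against 16.7, 20.2 and 29.2 CPM in group 12 livers (log2 fold change 1.72 ± 0.26, adjusted p = 0.00053). Fabp5, a fatty acid binding protein, was lower, with 18.1, 37.9 and 15.7 CPM in 3OFF livers, against 124, 243 and 125 CPM in group 12 livers (log2 fold change -2.78 ± 0.45, adjusted p = 0.000955). All were separate between groups. In 7OFF against 3OFF, 15 of the 32 were lower (5.04% of all genes were) and none higher. Summed levels of the list were 3183, 3421 and 3357 CPM in 3OFF livers, against 3441, 3385 and 3361 CPM in group 12 livers, and Cd68 and Adgre1, present in most macrophages, did not pass (0.25 and -0.38). The count of 2 lower became 1 when group 12 replicate 1, 2 or 3, 3OFF replicate 2 or 3OFF replicate 3 was left out.

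No Kupffer cell marker of 17, neutrophil marker of 15 or T and NK cell marker of 17 passed. Summed neutrophil markers were 1009, 227 and 144 CPM in 3OFF livers, against 423, 312 and 484 CPM in group 12 livers, with 3OFF replicate 1 above the other five; without it 3 of 15 were lower. No erythroid and platelet marker of 15 passed either, with a median of 0.95; their sums were 756, 666 and 140.4 CPM in 3OFF livers, against 274, 287 and 246 CPM in group 12 livers. In 3OFF, replicates 1 and 2 stood above all group 12 livers and replicate 3 below them, and without 3OFF replicate 3, 4 of the 15 were higher. Of 11 B and plasma cell markers tested, 1 was higher and 1 lower (9.09% each), close to the 9.47% and 7.95% of all genes. The other 9 did not pass. Cd74, the invariant chain of MHC class II, had 295, 306 and 249 CPM in 3OFF livers, against 119.5, 131 and 147 CPM in group 12 livers (log2 fold change 1.10 ± 0.16, adjusted p = 0.000487), while Pax5, which defines B cells, was lower, at 0.122, 0.304 and 0.244 CPM in 3OFF livers, against 0.727, 0.802 and 0.797 CPM in group 12 livers (log2 fold change -1.79 ± 0.48, adjusted p = 0.0184; adjusted p = 0.0848 without 3OFF replicate 1).

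Of 35 collagen and matrix genes, 3 were higher (8.57%) and 2 lower (5.71%), near the shares of all genes. Of 24 stellate cell and myofibroblast markers none was higher and 1 was lower (4.17%, against 7.95% of all genes). Col16a1, a fibril-associated collagen, had 21.6, 30.4 and 19.6 CPM in 3OFF livers, against 7.73, 8.47 and 9.65 CPM in group 12 livers (log2 fold change 1.46 ± 0.27, adjusted p = 0.0022), and Col15a1, of basement membranes, had 8.42, 9.91 and 7.59 CPM in 3OFF livers, against 32.8, 46.2 and 17.9 CPM in group 12 livers (log2 fold change -1.90 ± 0.26, adjusted p = 0.000312). Neither overlapped. The 3 became 1 without group 12 replicate 1, group 12 replicate 2 or 3OFF replicate 1, the 2 became 1 without group 12 replicate 2 or 3OFF replicate 3, and the stellate cell call was lost without group 12 replicate 2, 3OFF replicate 1 or 3OFF replicate 2.

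Of 29 matrix proteases and inhibitors, 6 were higher (20.7%, against 9.47% of all genes), 5 of them by at least 2-fold. In the other direction 1 was lower (3.45%, against 7.95%). Timp4 and Mmp15, given above, were among the higher genes. Timp1, an inhibitor of metalloproteinases, was the lower one, with 0.649, 0.97 and 1.33 CPM in 3OFF livers, against 2.23, 9.18 and 1.03 CPM in group 12 livers (log2 fold change -2.09 ± 0.61, adjusted p = 0.0274). Its groups overlapped, and group 12 replicate 2 was far above the rest. The log2 fold change was -0.69 without that library (adjusted p = 0.367), and the call was also lost without 3OFF replicate 1 (0.107) or 3OFF replicate 2 (0.0734). The 6 became 2 without group 12 replicate 1 or 3OFF replicate 1 and 3 without group 12 replicate 3. They were 3 with the groups fitted alone and 2 with the mitochondrial share as a term.

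**Figure D5:**
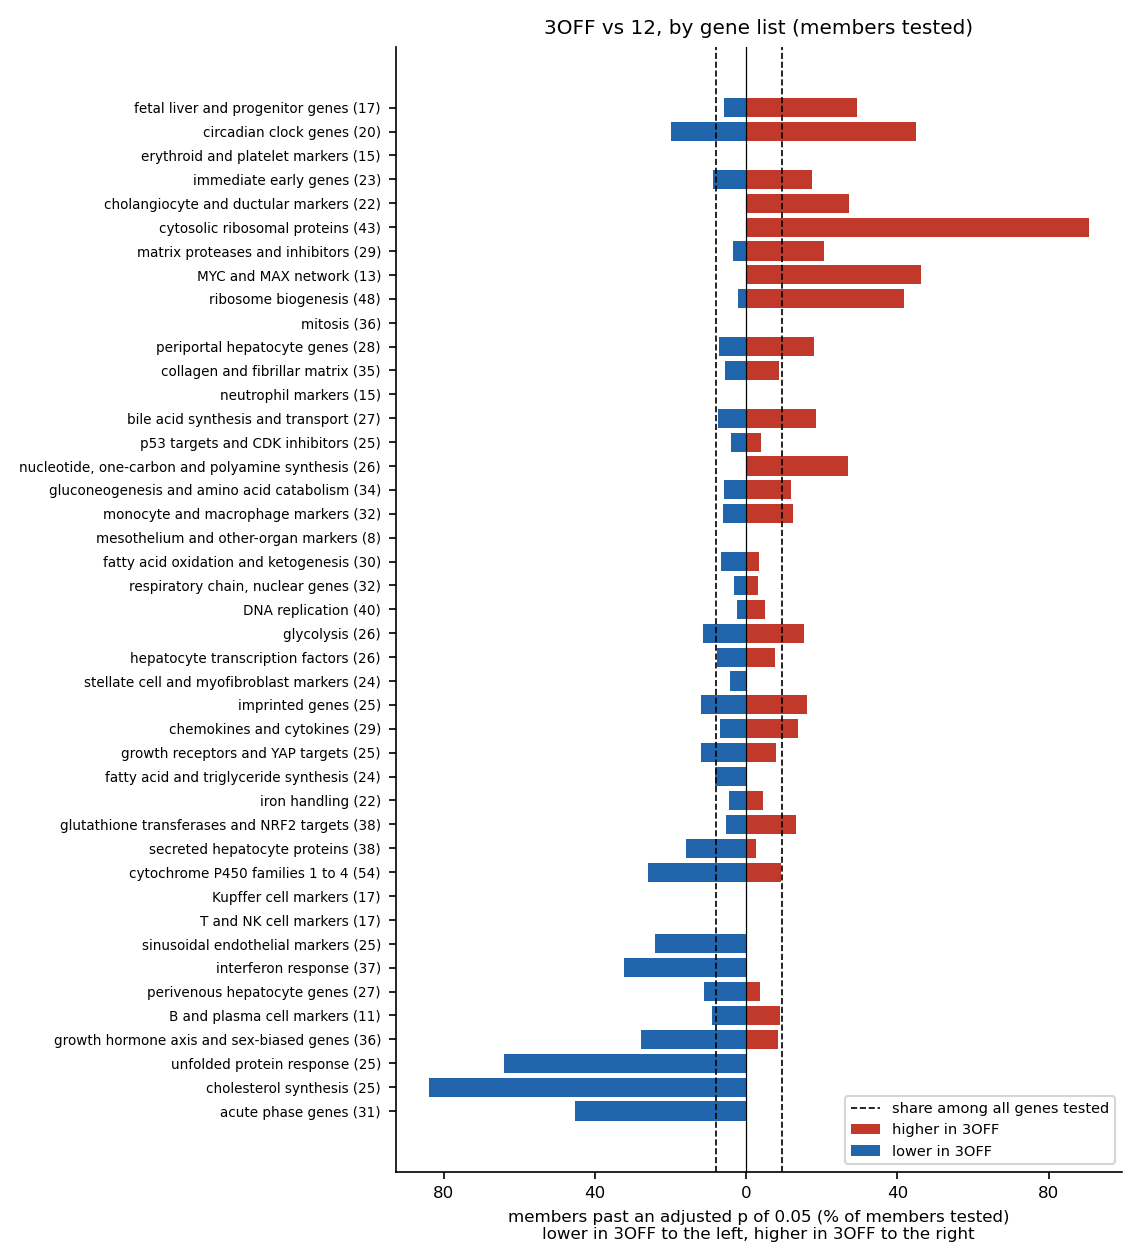
Share of each gene list past an adjusted p of 0.05 in 3OFF against group 12, lower to the left and higher to the right, ordered by median log2 fold change with the number of members tested in brackets; dashed lines are the shares among all genes tested (7.95% lower, 9.47% higher). The longest bars were 90.7% higher for ribosomal proteins, 84% lower for cholesterol synthesis and 64% lower for the unfolded protein response.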

How the data were processed

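Liver RNA was purified on Qiagen columns and poly-A libraries were read as single 50 nt reads, per the labels' protocols. The submitters' processing notes name Trim Galore, TopHat2 and mm10, with versions not given in the sources used here. The deposited values are raw counts per gene: per the file headers, the authors ran featureCounts 1.5.0-p1 with Ensembl release 82 of GRCm38, over exons, ignoring strand, asking for an overlap of 10 bases, counting a read for every gene it touched and skipping multi-mapped reads. Symbols were found for 34599 of 34937 IDs.

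One edgeR 4.0.16 model (R 4.3.3, TMM) held all 18 libraries; filterByExpr (minimum count 10) kept 17789 genes. It had 12 residual degrees of freedom, and the biological coefficient of variation was 0.202. Tests were two-sided quasi-likelihood F tests with Benjamini-Hochberg adjustment over all genes, and each standard error was taken from the F value. The 43 lists hold 1136 genes, of which 1105 were tested. Members and lists were chosen with earlier results of these data known, and lists were counted, not tested. Genes were named by rule: the 15 highest and the 15 lowest fold changes that passed, did not overlap and averaged 4 CPM or more; Myc, Esr1 and Mki67; up to 4 per list and direction by smallest p (2, as values, where none passed). Creld2, Pdia6 and Per1 were added for their promoters, and a few others were named after their values were seen. Some genes the rule names are not reported here. The test was checked on simulated data. Replicates of the 2 groups differed by a chi-square of 64.9 to 245 per gene, above sampling noise.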

Additional observations from a re-analysis of the deposited data

How the results depend on the processing

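The counts for 3OFF against group 12 (1685 higher, 1414 lower) kept within 1.5 times under other scalings, filters, DESeq2, a term for Xist and the replicate block (1523 to 1878 higher and 1142 to 1755 lower). They were 1029 and 859 with the groups fitted alone, 491 and 240 with a term for the mitochondrial share, 199 and 122 against a 1.5-fold change, and 728 and 521 at an adjusted p under 0.01. Leaving out both high-Xist libraries, chosen after seeing the data, gave 1028 and 858. Leaving out 1 library gave 1044 to 1300 higher and 743 to 1237 lower. A stricter threshold lowers a count by construction; otherwise the cause was not tested.

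For 3OFF against 12ON, leaving out 1 library gave 1528 to 2474 higher (2726 with all) and 2180 to 2803 lower (3028 with all), and no other setting moved either count by over 1.5 times. For 7OFF against 3OFF (538 higher, 896 lower) the higher count was 337 with no filter, 939 with DESeq2, 42 with the groups alone and 181 with the mitochondrial term; the lower count was 231 alone and 520 with that term; and leaving out 1 library gave 181 to 591 and 397 to 908. Lists with most of their members called in 1 direction numbered 3, or 6 with DESeq2, 1 with the groups alone, 1 with the mitochondrial term, and 2 to 3 with a library left out. Mitosis genes bounded within 2-fold numbered 5, or 22 alone, 2 with the mitochondrial term, 1 without the high-Xist libraries, and 2 to 4 with a library left out.

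Of 204 named genes, 190 had passed, and 115 of those 190 lost their call with the mitochondrial term. In 89 of the 190, a library left out ended the call or moved the fold change by over 1.5 times. Signs changed for genes that had not passed: Myc was -0.24 with the mitochondrial term and -0.15 to 0.36 with a library left out, lowest without 3OFF replicate 3. Mki67 was -0.43 with that term. Mmp8 was -0.0318 with it and -0.0677 to 1.31 with a library left out, lowest without 3OFF replicate 1. The cause was not tested.

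The main fit did not treat shared replicate numbers as pairs, and whether they mark pairs was not tested. Deviations of same-numbered 3OFF and group 12 libraries correlated at r = 0.0552 to 0.379. Those of differently numbered libraries correlated at r = -0.318 to 0.111, and 4 of 6 libraries correlated best with their own number. With the number as a replicate block, 1744 genes were higher and 1501 lower. At 23.1 M counts in the smallest library, genes near 1 CPM carry few reads, and their intervals are wide.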
